A study of Mus musculus with 10 samples.

Results

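Genes whose products sit in or against the myelin membrane of the central nervous system, 10 of the 18193 genes with a probe set of their own, were followed in newborn Nkx2.2-/- mice: Mag, Mog, Mobp, Cnp, Omg, Opalin, Ermn, Mal, Pllp and Tspan2. Every probe set (a group of short probes read as 1 value) annotated with 1 of these symbols was taken, which gave 21 of the 45101 on the array, and each of the 21 carried only 1 gene symbol. The groups were 5 Nkx2.2-/- mice (replicates 11, 12, 22, 29 and 43) and 5 wild-type littermates (replicates 14, 15, 16, 18 and 21), all of strain C57BL/6 and aged 1.5 to 2 days after birth. Nkx2.2 is a homeodomain transcription factor of the ventral neural tube and of the oligodendrocyte lineage, and the labels name the allele only as Nkx2.2-/-. RNA came from pons, medulla and rostral spinal cord cut from 20 µm sections, with 1 array per mouse, and the values are log2 expression values made with RMA, a method that corrects background, normalizes the arrays to each other and summarises the probes.

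Oligodendrocytes wrap axons in compacted membrane, and around birth the hindbrain and spinal cord hold many precursors and the first cells that make myelin. Cnp and Tspan2 are among the genes switched on early as these cells differentiate, Mag and Mobp come with the building of myelin, and Mog, Opalin and Ermn are known as late products of mature cells. Some members are not restricted to the lineage: neurons also make Omg, and epithelia make Mal and Pllp.

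Cnp, Mobp and Mag, 3 of the 10 genes, fell in the Nkx2.2-/- mice by the test over all probe sets. They were represented by 5 of the 21 probe sets, with log2 changes (Nkx2.2-/- minus wild type) from -1.59 to -0.60, and 0 of 21 rose (limma, Benjamini-Hochberg adjusted p under 0.05 over 45037 probe sets). Over all probe sets 0.0511% fell and 0% rose. With the brightest probe set standing for each of 18193 genes, the same 3 genes fell, against 0.0605% of those genes. In 8 of the 21, from 4 genes, every Nkx2.2-/- mouse lay below every wild-type mouse, as was true of 0.442% of all probe sets; Mog was the fourth gene. No member had all Nkx2.2-/- mice above all wild-type mice, against 0.315% of all probe sets. Omg, Opalin, Ermn, Mal, Pllp and Tspan2, read by 11 probe sets, had 0 past the threshold and 0 with separated groups. The median log2 change was -0.26 over the member probe sets and 0.001 over all probe sets.

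**Figure D1:**
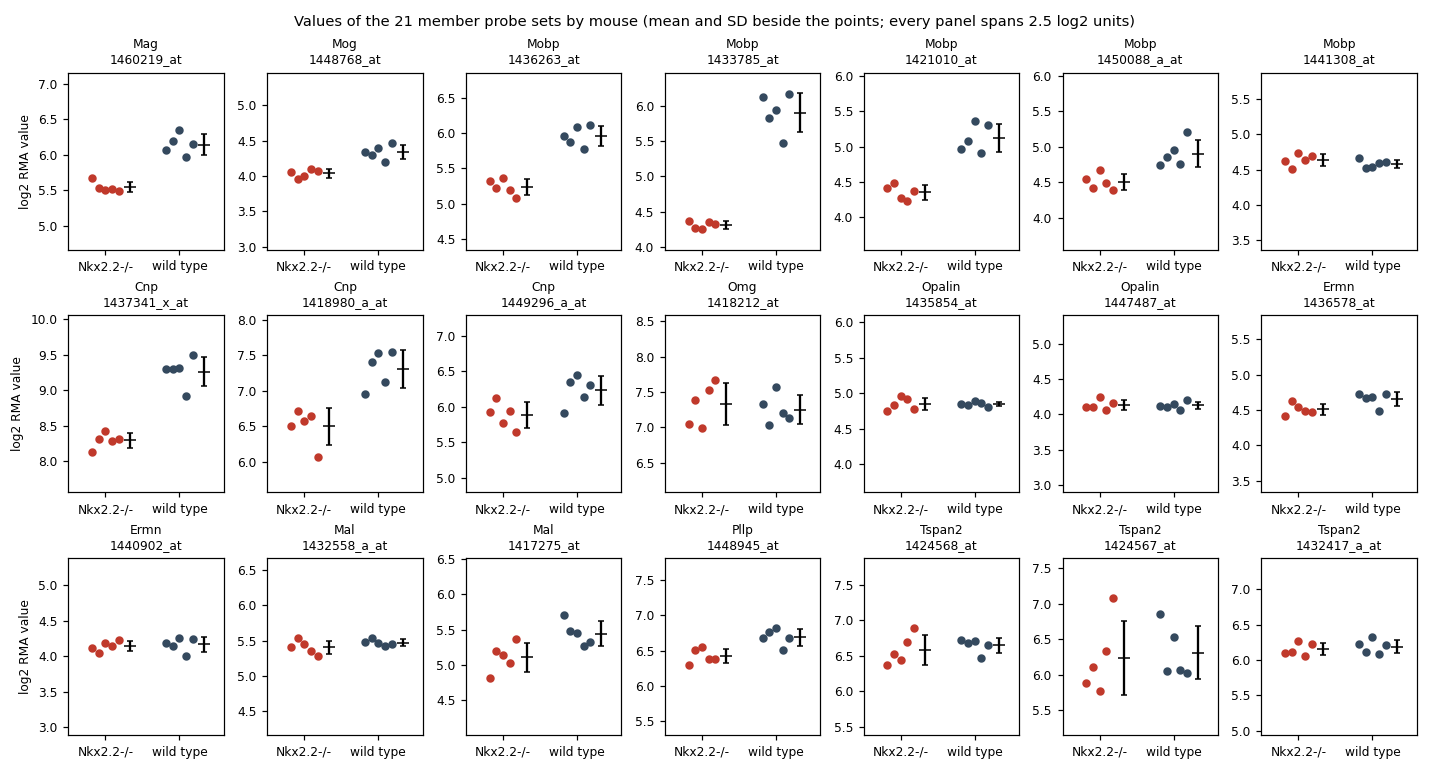
Log2 RMA value of each of the 21 member probe sets (1 panel each, all spanning the same number of log2 units) in the 5 Nkx2.2-/- mice (red, left) and the 5 wild-type mice (dark, right), with the mean and SD beside the points. The red points lie wholly below the dark ones for Mag, Mog, 4 probe sets of Mobp and 2 of Cnp, and the groups overlap in the other 13 panels.

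The targeted transcript, Nkx2-2, was read at 4.51 ± 0.207 in Nkx2.2-/- mice and 6.55 ± 0.186 in wild-type mice (SD, n = 5 each), and the groups did not overlap. No source used here places that probe set inside or outside the targeted part of the gene. The 7 measured Hox genes of the hindbrain averaged 6.04 to 6.79 in Nkx2.2-/- mice and 6.06 to 6.71 in wild-type mice, and 6 measured forebrain genes averaged 4.80 to 4.97 in Nkx2.2-/- mice and 4.78 to 5.08 in wild-type mice. The single genes overlapped in level: in wild type the Hox genes lay above 51.1% (Hoxa2) to 91.5% (Hoxb3) of probe sets, and the forebrain genes above 5.62% (Tbr1) to 77.4% (Neurod6). The arrays were not alike in every respect. On Nkx2.2-/- replicate 43 and wild-type replicate 14, the control probe set at the 3 prime end of Gapdh exceeded that at the 5 prime end by 3.78 and 2.13 on the log2 scale, against -0.32 to 0.13 on the other 8. Genes of cerebellar cells, from tissue beside the dissected region, averaged highest in Nkx2.2-/- replicate 11 (6.91, others of its group 5.95 to 6.13) and wild-type replicate 18 (7.13, others of its group 6.06 to 6.65).

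Windows at the start sites of the 4 genes with separated groups are shown for reference. Each runs from 250 bases before to 50 after the start, 5′ to 3′ on the gene's strand, in RefSeq's GRCm38.p6, and where the table lists several starts the outermost is shown. Capitals mark 3 letter patterns searched on both strands: TNAAGTG, a core bound by NK2-class homeodomain proteins such as Nkx2.2; ACAAAG, a core bound by Sox proteins; and CTGGNAC, a core bound by Myrf, the transcription factor of myelination.
Mag chr7:30914873-30915172 (minus strand): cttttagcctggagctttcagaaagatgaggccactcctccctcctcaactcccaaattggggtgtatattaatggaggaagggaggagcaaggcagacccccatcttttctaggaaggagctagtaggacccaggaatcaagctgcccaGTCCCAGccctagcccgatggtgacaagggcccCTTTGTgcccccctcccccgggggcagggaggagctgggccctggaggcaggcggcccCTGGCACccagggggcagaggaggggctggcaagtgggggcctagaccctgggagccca
Mog chr17:37023349-37023648 (minus strand): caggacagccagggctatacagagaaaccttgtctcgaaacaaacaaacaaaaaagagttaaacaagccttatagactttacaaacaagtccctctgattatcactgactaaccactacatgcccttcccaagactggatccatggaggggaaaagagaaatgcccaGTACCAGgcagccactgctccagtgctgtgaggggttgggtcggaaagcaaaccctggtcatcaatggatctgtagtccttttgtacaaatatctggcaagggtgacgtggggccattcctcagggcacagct
Mobp chr9:120149492-120149791 (plus strand): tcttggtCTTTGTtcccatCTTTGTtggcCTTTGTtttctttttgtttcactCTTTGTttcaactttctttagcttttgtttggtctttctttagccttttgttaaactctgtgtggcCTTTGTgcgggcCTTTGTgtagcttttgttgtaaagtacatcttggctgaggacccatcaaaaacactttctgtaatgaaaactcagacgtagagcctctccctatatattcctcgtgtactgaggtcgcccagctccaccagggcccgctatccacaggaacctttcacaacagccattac
Cnp chr11:100574689-100574988 (plus strand): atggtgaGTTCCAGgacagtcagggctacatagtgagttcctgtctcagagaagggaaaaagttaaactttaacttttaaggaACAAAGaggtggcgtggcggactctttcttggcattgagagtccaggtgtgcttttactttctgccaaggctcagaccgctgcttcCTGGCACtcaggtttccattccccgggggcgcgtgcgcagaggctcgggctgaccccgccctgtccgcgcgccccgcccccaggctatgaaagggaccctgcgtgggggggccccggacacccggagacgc
The Sox core occurred 6 times in the Mobp window, once each in those of Mag and Cnp and not in that of Mog. The Myrf core occurred 2 times each in the windows of Mag and Cnp, 1 time in that of Mog and not in that of Mobp. The NK2 core was in 0 of these 4 windows. Among members without separated groups, the Opalin window held the Sox core 2 times and the Myrf core 1 time. Its log2 changes were 0.0027 and 0.0083. The windows of Ermn, Mal, Pllp and Tspan2 held neither core. The log2 changes of these genes were also below 0, from -0.34 (Mal 1417275_at) to -0.02 (Ermn 1440902_at). A link between the cores and the changes was not tested. Of the 32851 promoter windows in the table, 18.7% hold the Sox core, 19.3% the Myrf core and 11.5% the NK2 core. No 2 matches in these windows overlap, and they are matches of letters, not binding sites.

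Cnp encodes cyclic nucleotide phosphodiesterase, a membrane-anchored enzyme that keeps cytoplasmic channels open in myelin and is among the most abundant proteins of the oligodendrocyte. Its brightest probe set, 1437341_x_at, was at 8.12, 8.32, 8.42, 8.28 and 8.32 in Nkx2.2-/- replicates 11, 12, 22, 29 and 43, and at 9.30, 9.29, 9.32, 8.92 and 9.49 in wild-type replicates 14, 15, 16, 18 and 21. The 5 Nkx2.2-/- mice lay within a narrow band, and the lowest wild-type mouse was above the highest of them. Nkx2.2-/- mice averaged 8.29 ± 0.107 and wild-type mice 9.26 ± 0.209 (SD, n = 5 each), so the Nkx2.2-/- level was 1.96-fold lower (log2 change -0.97, 95% interval -1.18 to -0.76, limma adjusted p = 0.0023). The suffix x_at marks a probe set whose probes may also bind other transcripts.

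The second Cnp probe set, 1418980_a_at, was at 6.50, 6.71, 6.58, 6.64 and 6.06 in Nkx2.2-/- replicates 11, 12, 22, 29 and 43, and at 6.95, 7.41, 7.53, 7.12 and 7.55 in wild-type replicates 14, 15, 16, 18 and 21. The groups did not overlap, but the mice of each spread more widely, and the lowest of each group was the array with the Gapdh difference. With all 10 arrays its log2 change of -0.81 (SE 0.145) did not pass over all probe sets (limma adjusted p = 0.232). With the Gapdh difference as a covariate the change was -0.74 and passed (limma adjusted p = 0.00294), and without those arrays it was -0.79 and passed (limma adjusted p = 0.0205). Cnp thus had 2 probe sets past the threshold under either setting and 1 otherwise.

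The third, 1449296_a_at, overlapped between genotypes, with 5.64 to 6.12 in Nkx2.2-/- mice and 5.91 to 6.45 in wild-type mice. Again Nkx2.2-/- replicate 43 and wild-type replicate 14 were the lowest of their groups. Its log2 change was -0.35 (SE 0.111, limma adjusted p = 0.9997). The probe sets of 1 gene can be set against each other within an array, which removes what an array shares. The brightest probe set of Cnp exceeded this one by 2.41 ± 0.238 in Nkx2.2-/- mice and 3.03 ± 0.249 in wild-type mice (SD, n = 5 each). That contrast of the changes was -0.62 and passed (exact two-sided permutation p = 0.00794, adjusted p = 0.0218 over 11 pairs). This p is the smallest that 5 against 5 can give. For 1418980_a_at the contrast with the brightest was -0.16 and did not pass (exact permutation p = 0.365, adjusted p = 0.574).

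**Figure D2:**
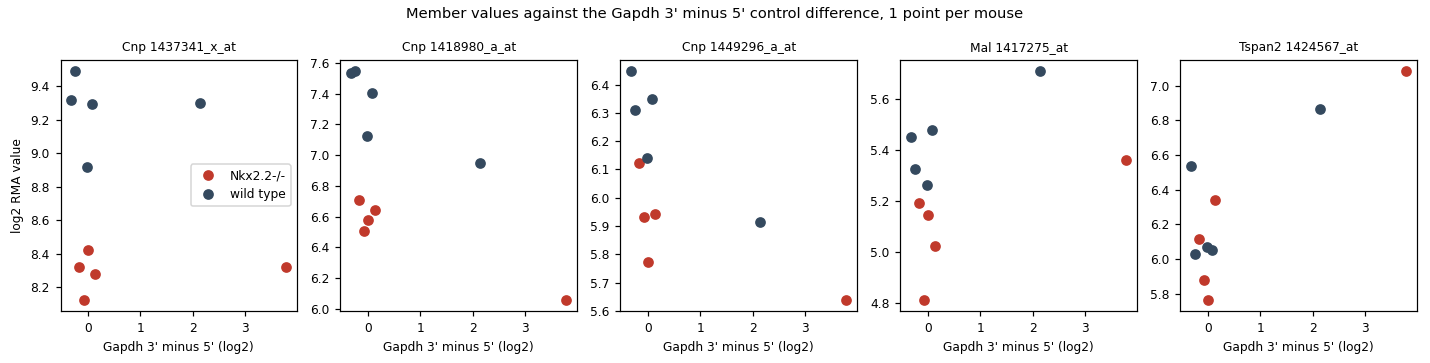
Log2 RMA value (vertical axis) of the 3 Cnp probe sets, Mal 1417275_at and Tspan2 1424567_at against the Gapdh 3 prime minus 5 prime control difference on the log2 scale (horizontal axis), 1 point per mouse, Nkx2.2-/- in red and wild type dark. The arrays at 3.78 and 2.13 on the horizontal axis are the lowest of their genotype for Cnp 1418980_a_at and 1449296_a_at and the highest for Mal 1417275_at and Tspan2 1424567_at, whereas for Cnp 1437341_x_at they lie among the others.

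Mobp encodes small basic proteins that lie between the apposed cytoplasmic faces of compact myelin. It is read by 5 probe sets, of which 3 fell, 1 more was separated between genotypes without passing, and 1 showed no drop. The widest gap was in 1433785_at, at 4.37, 4.27, 4.25, 4.36 and 4.33 in Nkx2.2-/- replicates 11, 12, 22, 29 and 43, and at 6.12, 5.82, 5.93, 5.47 and 6.16 in wild-type replicates 14, 15, 16, 18 and 21. All Nkx2.2-/- mice were nearly level, more than 1 log2 unit below the lowest wild-type mouse. Nkx2.2-/- mice averaged 4.32 ± 0.0531 and wild-type mice 5.90 ± 0.279 (SD, n = 5 each). This was the largest difference among the members (log2 change -1.59, 95% interval -1.84 to -1.34, limma adjusted p = 2.5e-04). Only 12.4% of probe sets were dimmer than its Nkx2.2-/- mean, and 69.7% were dimmer than its wild-type mean. RMA compresses differences between dim values, and the deposited values carry no detection call.

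The brightest Mobp probe set, 1436263_at, was at 5.32, 5.22, 5.36, 5.19 and 5.09 in Nkx2.2-/- replicates 11, 12, 22, 29 and 43, and at 5.96, 5.88, 6.08, 5.77 and 6.12 in wild-type replicates 14, 15, 16, 18 and 21. Its log2 change was -0.72 (SE 0.0745), or 1.65-fold lower (limma adjusted p = 0.00341), with the groups well apart. In 1421010_at the range was 4.23 to 4.49 in Nkx2.2-/- mice and 4.92 to 5.36 in wild-type mice, and the log2 change was -0.77 (SE 0.0906, limma adjusted p = 0.0101). This call was lost without Nkx2.2-/- replicate 29 (log2 change -0.74, limma adjusted p = 0.0533). In 1450088_a_at the ranges were 4.40 to 4.68 in Nkx2.2-/- mice and 4.75 to 5.21 in wild-type mice, apart by a small margin, and the log2 change of -0.40 (SE 0.0888) did not pass (limma adjusted p = 0.635). The fifth, 1441308_at, lay between 4.505 and 4.73 in Nkx2.2-/- mice and between 4.53 and 4.66 in wild-type mice. The 95% interval of its log2 change ran from -0.05 to 0.16. Both were dim: 42.8% of probe sets were dimmer than the wild-type mean of 1450088_a_at, and 26.9% dimmer than that of 1441308_at. The Nkx2.2-/- means of 1433785_at and 1421010_at, 4.32 and 4.35, lay below both of these wild-type means, 4.91 and 4.58. Whether dimness limited the readings of 1450088_a_at and 1441308_at was not tested.

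The Mobp probe sets did not change alike. Set against the brightest within each array, 1433785_at fell by more (difference of the log2 changes 0.86), and 1450088_a_at and 1441308_at changed by less (differences -0.32 and -0.78). Each of these 3 contrasts separated the genotypes completely (exact two-sided permutation p = 0.00794, adjusted p = 0.0218 over 11 pairs). The contrast with 1421010_at was 0.05 and did not pass (exact permutation p = 0.587, adjusted p = 0.808). Together with the Cnp pair, 4 of the 11 pairs passed, and those 4 also passed without any 1 array. Without both arrays of high cerebellar signal or both of the Gapdh difference, 0 pairs passed, with a smallest adjusted exact permutation p of 0.0786 and 0.0629. In both settings those 4 pairs lay at 0.0286, the smallest exact permutation p that 4 against 4 can give. The loss of the calls thus does not show that the contrasts changed. That of 1433785_at was 0.92 and 0.85, of 1450088_a_at -0.35 and -0.28, and of 1441308_at -0.85 and -0.75. The sources used here do not place each probe set on the Mobp transcripts. The probe sets that changed by less, 1450088_a_at and 1441308_at, were also the dimmest of Mobp in wild type. The part of that dimness in the contrasts was not tested.

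Mag encodes myelin-associated glycoprotein, a sialic acid-binding adhesion protein on the innermost myelin membrane, where it faces the axon. Its single probe set, 1460219_at, was at 5.67, 5.54, 5.50, 5.52 and 5.49 in Nkx2.2-/- replicates 11, 12, 22, 29 and 43, and at 6.06, 6.19, 6.35, 5.96 and 6.14 in wild-type replicates 14, 15, 16, 18 and 21. The 2 ranges were separate, with replicate 11 standing above the other Nkx2.2-/- mice. Nkx2.2-/- mice averaged 5.54 ± 0.0741 and wild-type mice 6.14 ± 0.145 (SD, n = 5 each), a 1.51-fold lower level (log2 change -0.60, 95% interval -0.75 to -0.45, limma adjusted p = 0.00894). With any 1 array left out the call held, most narrowly without Nkx2.2-/- replicate 29 (log2 change -0.59, limma adjusted p = 0.0484).

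Mog encodes a glycoprotein of the outermost myelin surface, one of the last to appear. The probe set 1448768_at was at 4.05, 3.96, 3.99, 4.10 and 4.08 in Nkx2.2-/- replicates 11, 12, 22, 29 and 43, and at 4.35, 4.29, 4.39, 4.20 and 4.46 in wild-type replicates 14, 15, 16, 18 and 21. No mouse of one genotype lay within the range of the other, although both were dim: 2.65% of probe sets were dimmer than the Nkx2.2-/- mean and 13.6% dimmer than the wild-type mean. The log2 change was -0.30 (SE 0.0527) and did not pass over all probe sets (limma adjusted p = 0.216). It passed with a variance prior that follows the mean level (limma adjusted p = 0.0333).

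**Figure D3:**
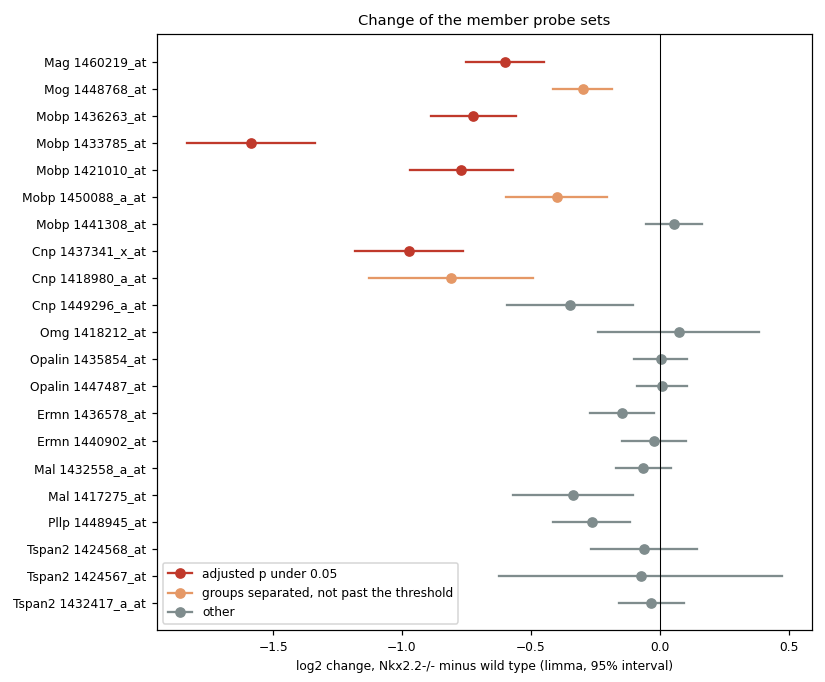
Log2 change (Nkx2.2-/- minus wild type) of the 21 member probe sets on the horizontal axis, with 95% intervals from limma, in red where the adjusted p was under 0.05, in orange where the genotypes were separated without passing, and in grey otherwise. The 5 red points run from -1.59 to -0.60, and the points of Omg, Opalin and Tspan2 sit near 0.

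Among the raft and tetraspan proteins, the raft proteolipid Mal and its relative Pllp (plasmolipin) had lower means without passing. Pllp 1448945_at was at 6.30, 6.51, 6.55, 6.38 and 6.37 in Nkx2.2-/- replicates 11, 12, 22, 29 and 43, and at 6.68, 6.76, 6.81, 6.50 and 6.68 in wild-type replicates 14, 15, 16, 18 and 21. The overlap came from wild-type replicate 18, and all 5 Nkx2.2-/- mice were below the wild-type median. Its log2 change of -0.26 (95% interval -0.41 to -0.12) did not pass (limma adjusted p = 0.9997).

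Mal gave different readings by probe set. In 1417275_at the values were 4.81, 5.19, 5.15, 5.02 and 5.36 in Nkx2.2-/- replicates 11, 12, 22, 29 and 43, and 5.71, 5.48, 5.45, 5.26 and 5.32 in wild-type replicates 14, 15, 16, 18 and 21, and the log2 change was -0.34 (SE 0.106, limma adjusted p = 0.9997). The highest mouse of each genotype was the array with the Gapdh difference, and Nkx2.2-/- replicate 43 was the only one of its group within the wild-type range. In the brighter 1432558_a_at the ranges were 5.29 to 5.53 in Nkx2.2-/- mice and 5.42 to 5.54 in wild-type mice, with a log2 change of -0.06. The contrast between the Mal probe sets, 0.27, did not pass (exact permutation p = 0.0635, adjusted p = 0.140).

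Tspan2, a tetraspanin of differentiating oligodendrocytes, was well read and overlapped between genotypes in all 3 probe sets. In 1424568_at the values were 6.37, 6.52, 6.44, 6.70 and 6.89 in Nkx2.2-/- replicates 11, 12, 22, 29 and 43, and 6.72, 6.68, 6.71, 6.47 and 6.64 in wild-type replicates 14, 15, 16, 18 and 21. The Nkx2.2-/- mice spanned the whole wild-type range. In 1424567_at the spread was wider, from 5.77 to 7.08 in Nkx2.2-/- mice and from 6.03 to 6.86 in wild-type mice, and the highest of each group was again the array with the Gapdh difference. The log2 change was -0.06 for 1424568_at, -0.08 for 1424567_at and -0.03 for 1432417_a_at, and the 95% interval was narrowest for the last, from -0.16 to 0.09. That of 1424567_at ran from -0.62 to 0.47 and so included a change as large as that of Mag.

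Omg, the oligodendrocyte-myelin glycoprotein, is anchored to the cell surface by a lipid and binds the Nogo receptor. Its probe set 1418212_at was at 7.05, 7.39, 6.99, 7.52 and 7.67 in Nkx2.2-/- replicates 11, 12, 22, 29 and 43, and at 7.33, 7.03, 7.57, 7.20 and 7.14 in wild-type replicates 14, 15, 16, 18 and 21. The groups were interleaved, with a log2 change of 0.07 (95% interval -0.24 to 0.38). The 10 neuronal markers had 0 past the threshold, near the 0.0511% of all probe sets that fell, with a median log2 change of 0.04.

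Opalin, a sialylated transmembrane glycoprotein of oligodendrocytes, and Ermn, a cytoskeletal protein of mature oligodendrocytes, were dim. Opalin 1435854_at lay between 4.75 and 4.95 in Nkx2.2-/- mice and between 4.80 and 4.89 in wild-type mice, and its log2 change was 0.0027 (95% interval -0.10 to 0.10). The second, 1447487_at, had a wild-type mean above 5.28% of probe sets and a log2 change of 0.0083. Ermn 1436578_at was at 4.42, 4.63, 4.54, 4.49 and 4.48 in Nkx2.2-/- replicates 11, 12, 22, 29 and 43, and at 4.73, 4.67, 4.68, 4.49 and 4.72 in wild-type replicates 14, 15, 16, 18 and 21. Without wild-type replicate 18 the ranges of this Ermn probe set would not meet, and its log2 change was -0.15 (SE 0.0561, limma adjusted p = 0.9997) with all arrays and -0.19 (limma adjusted p = 0.9999) without that one. The dimmer Ermn 1440902_at, with a wild-type mean above 6.54% of probe sets, had a log2 change of -0.02.

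Before adjustment, 12 of the 21 probe sets had a p under 0.05, all of them lower in Nkx2.2-/- mice, against 2.35% of all probe sets that were lower at that p. Wild-type replicate 18 was the lowest wild-type mouse in 6 of the 8 separated probe sets and in 14 of all 21, and wild-type replicate 21 was the highest in 6 of the 8. Without replicate 18 the log2 changes of the called probe sets ran from -1.69 to -0.64. Without both arrays of high cerebellar signal (Nkx2.2-/- replicate 11, wild-type replicate 18) the same 3 genes passed, with Mag at -0.68 (limma adjusted p = 0.00697), Mobp 1433785_at at -1.71 and Cnp 1437341_x_at at -1.02. Without both arrays of the Gapdh difference the 3 genes also passed, with Mag at -0.60 (limma adjusted p = 0.0366). In bulk tissue, fewer oligodendrocytes and less transcript per oligodendrocyte cannot be told apart.

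Marker lists of other cells give the setting. Among all probe sets 0.0511% fell, 0% rose and 49.2% were lower in sign. In lists this short, 0 passing is near that share and does not show that a cell type was unchanged. Of 10 markers of oligodendrocyte precursors 0 passed, with averages of 7.74 to 8.04 in Nkx2.2-/- mice and 7.84 to 7.90 in wild-type mice. That average covers differences of opposite sign: Pdgfra, the growth factor receptor of precursors, was at 8.39 ± 0.382 in Nkx2.2-/- mice and 7.87 ± 0.143 in wild-type mice (SD, n = 5 each), with a 95% interval of the log2 change from 0.17 to 0.87. Gpr17, a receptor of cells leaving the precursor stage, was at 7.33 ± 0.223 in Nkx2.2-/- mice and 7.72 ± 0.159 in wild-type mice (SD, n = 5 each), with an interval from -0.63 to -0.15, and neither passed over all probe sets (limma adjusted p = 0.9997 for both). Of 6 measured markers of Schwann cells, which make peripheral myelin, 0 passed, with averages of 5.002 to 5.26 in Nkx2.2-/- mice and 5.03 to 5.38 in wild-type mice. Of 8 astrocyte markers 0 passed, with a median log2 change of -0.12. Caudal Hox genes were higher in sign in 10 of 11, with averages of 4.92 to 5.26 in Nkx2.2-/- mice and 4.84 to 4.93 in wild-type mice, and 0 passed. Their median log2 change was 0.04, and the largest was that of Hoxc8, 1.33, with 4.72 to 7.22 in Nkx2.2-/- mice. The caudal Hox average partly follows genotype, so as a covariate it also makes the genotype difference less precise. With that average as a covariate the members changed by similar amounts but 2 probe sets passed, Cnp 1437341_x_at (-1.11, limma adjusted p = 0.0401) and Mobp 1433785_at (-1.62, limma adjusted p = 0.0233), while Mag (-0.57, limma adjusted p = 0.518), Mobp 1436263_at (-0.78, limma adjusted p = 0.131) and Mobp 1421010_at (-0.71, limma adjusted p = 0.627) did not. Proliferation genes were lower in sign in 12 of 12, with averages of 5.57 to 6.06 in Nkx2.2-/- mice and 5.94 to 6.54 in wild-type mice, and 0 passed. Their median log2 change was -0.33, beside -0.26 over the member probe sets. The largest was that of Mki67, -0.70 (95% interval -1.23 to -0.17, limma adjusted p = 0.9997). The part of the proliferation genes in the member changes was not tested.

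Of 41 other measured myelin genes, each read by its brightest probe set, 3 fell and 0 rose. In 13 the groups were separated with Nkx2.2-/- lower, and the median log2 change was -0.10. The shares over all probe sets were 0.0511% that fell, 0% that rose and 0.442% so separated. Those that fell were Mbp, myelin basic protein, at 8.05 ± 0.499 in Nkx2.2-/- mice and 10.8 ± 0.245 in wild-type mice (SD, n = 5 each), Cldn11, the claudin of myelin tight junctions, and Ugt8a, the galactosylceramide synthase. Adamts4 and Tmem88b, with log2 changes of -0.35 and -0.36 (limma adjusted p = 0.0985 and 0.106), did not pass, nor did Bcas1, a protein of newly myelinating cells, with -0.77 (limma adjusted p = 0.334). Of the 41 genes, 30 were lower in sign, against 49.2% of all probe sets.

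**Figure D4:**
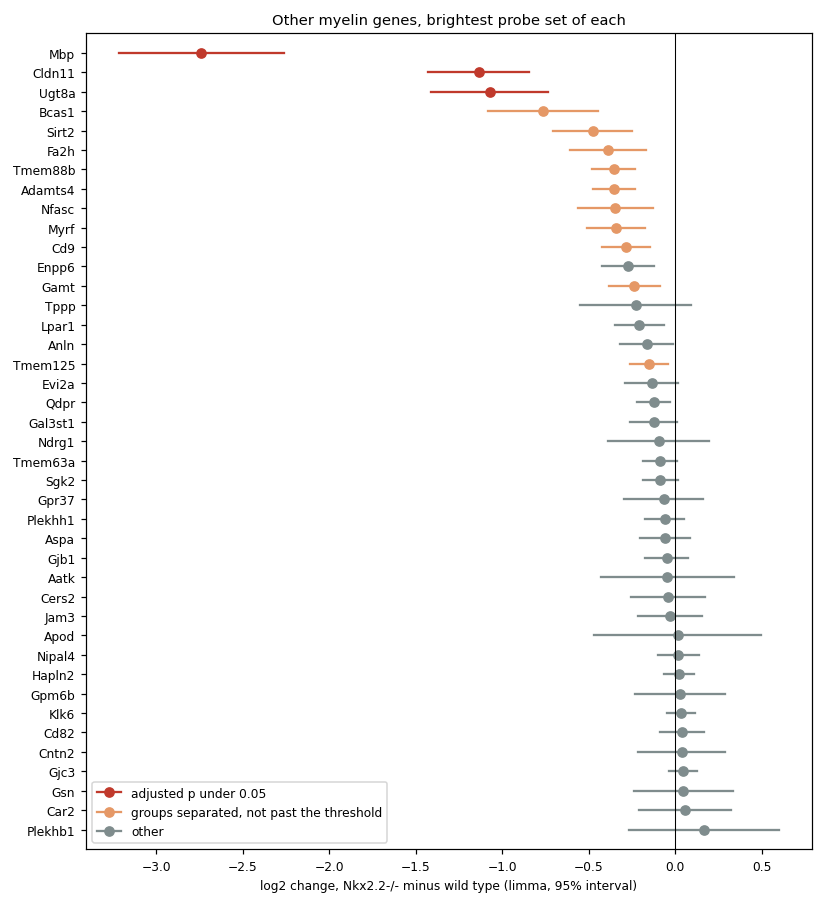
Log2 change (Nkx2.2-/- minus wild type) of 41 other myelin genes on the horizontal axis, brightest probe set of each, with 95% intervals from limma, in red for an adjusted p under 0.05, in orange for separated genotypes without passing and in grey otherwise. Mbp, Cldn11 and Ugt8a are red, and the intervals of most other genes include 0.

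The genes whose profile over the 10 arrays, after subtracting the wild-type mean, was most like that of a called member were ranked, and the 3 nearest are given for each of 3 member probe sets. Nearest to Mag were Plxnb3, a plexin receptor, with a root mean square difference of 0.0935 on the log2 scale, 9630013A20Rik with 0.123 and Snx5, a sorting nexin, with 0.142. The same 3 genes were nearest to the brightest Mobp probe set, at 0.119, 0.140 and 0.188, with 9630013A20Rik read there by another of its probe sets. Nearest to Cnp 1437341_x_at were 9630013A20Rik at 0.157, Bcas1 at 0.240 and Ugt8a at 0.241. These profiles hold the genotype difference, so the ranking itself picks genes of similar log2 change, and that likeness is no separate result. Plxnb3 was at 5.34 in Nkx2.2-/- mice and 5.96 in wild-type mice on average, a log2 change of -0.62 beside the -0.60 of Mag.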

How the data were processed

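Expression was measured on 10 arrays, 1 per mouse, and titles of the samples gave the groups. Per the submitters' processing notes, RMA of unstated version made the log2 values that the authors deposited. Because it equalises the distribution of the arrays, shifts common to most genes are hidden. The number of arrays limits the precision, and litters of the mice were not used here. Values ran from 3.52 to 13.2, with array medians from 5.07 to 5.12. Of 45101 probe sets, 64 controls were left out, and the rest were named from the platform's annotation (34945 with 1 symbol, 932 with several, 9160 with none). All 45037 were fitted in limma 3.58.1 (R 4.3.3; lmFit, eBayes) with no covariate or filter, with Benjamini-Hochberg adjustment at 0.05. Probe sets of 1 member were compared by the per-array difference in an exact permutation test (scipy 1.17.1). On 10 simulated sets of this comparison with 45037 probe sets, 200 of them changed, the fit recovered 79.0% of log2 changes of 0.5. It recovered 96.2% of 1, 98.6% of 1.5 and 100% of 2, and 4.92% of calls were false. The simulated noise was normal and independent between probe sets, without differences shared by an array. The 200 changed probe sets also exceed the 23 calls in the real data. These rates may therefore be too favourable for the real arrays. The members, lists, naming rule and alternatives were chosen with earlier results of these data known. Named were all members, Nkx2-2, up to 6 genes of each list and the 3 nearest profiles of each called gene. RefSeq promoter windows of GRCm38.p6 were matched by symbol for 9 of 10 members. The alternatives were other normalization, centring, filtering, priors, weights, covariates, thresholds, 1 probe set per gene, and leaving out arrays.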

Additional observations from a re-analysis of the deposited data

Results flagged for a closer look

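Of all values looked at, 2 stood apart from the other 4 mice of their group by more than Dixon's 95% critical value of 0.71, among 42 groups of 5 values looked at, where chance gives about 1 in 20. Mag 1460219_at was at 5.67 in Nkx2.2-/- replicate 11, against 5.49 to 5.54 in the other Nkx2.2-/- mice, and remained below every wild-type mouse. Ermn 1436578_at was at 4.49 in wild-type replicate 18, against 4.67 to 4.73 in the other wild-type mice. About 2.1 flags would be expected by chance among the 42 groups. The 2 arrays are those of highest cerebellar signal in their groups, and a link was not tested.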

How the results depend on the processing

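Over 22 alternatives, the 21 single log2 changes gave 443 values, of which 418 kept their sign and their side of the threshold. The 5 calls became 3 with 1 probe set per gene, which leaves 10 member probe sets, and 2 with the caudal Hox average as a covariate, and ran from 4 to 5 without any 1 array. Cnp, Mag and Mobp were the 3 called genes without any 1 array. Over all probe sets the 23 calls became 11 with 1 probe set per gene and 10 with that covariate, and ran from 18 to 23 without any 1 array. With 4 arrays a group, 0 of the 11 pairs passed without the Gapdh arrays or without the cerebellar arrays, where 5 and 4 pairs lay at 0.0286, the smallest exact permutation p this size allows, and 4 to 5 passed without any 1 array. Sign changes touched only probe sets that never passed: Mobp 1441308_at was at -0.0095 with the Hox covariate; Opalin 1435854_at was at -0.0037 with array weights, -0.093 with the Hox covariate and -0.0099 with the cerebellum covariate, and from -0.024 to 0.028 without any 1 array; Opalin 1447487_at was at -0.039 with the Hox covariate, -0.0026 without the Gapdh arrays and -0.00069 without the cerebellar arrays, and from -0.018 to 0.029 without any 1 array. Without any 1 array Omg ran from -0.015 to 0.16, Ermn 1440902_at from -0.064 to 0.0028 and Tspan2 1424567_at from -0.29 to 0.063. The cause of these shifts was not tested. Leaving out dim probe sets kept 13 member probe sets and gave no value for the other 8. No paired analysis was possible because the genotypes share no replicate number and the labels used here do not assign the mice to litters.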
